A study of Mus musculus with 4 samples.

Results

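The promoters of signalling genes of the WNT, FGF, BMP and Notch families, with a few of the hedgehog and Slit families, were examined for their histone H3 lysine 4 (H3K4) signal in activated mouse B cells. The genes were the protein-coding genes of GENCODE vM1 named Wnt, Fzd, Fgf, Fgfr, Bmp, Bmpr, Notch, Dll or Jag with a number, plus Smo, Ptch1, Shh, Slit1, Slit2 and Slit3. The rule gave 87 of 22367 genes, after a second identifier that starts inside Fgfr1 was left out. Of these, 60 were grouped as ligands, 23 as receptors and 4 as neither. The last are Bmp1, a procollagen protease, Bmp2k, a kinase, and Fgfr1op and Fgfr1op2, which encode proteins first known from fusions with FGFR1. The ligand group includes Fgf11, Fgf12, Fgf13 and Fgf14, which are usually described as intracellular proteins rather than secreted ligands. Every count and comparison of ligands below keeps them in that group.

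The data are native chromatin immunoprecipitation sequencing (ChIP-seq) of MNase-cut mononucleosomes, with 1 library labelled H3K4 from PA1-KO B cells and 1 from PA1-WT B cells. Splenic B cells of mice aged 6 to 14 weeks, freed of CD43-positive cells, were stimulated for 2 days with LPS (25 µg/ml) and with either dextran-coupled antibody to IgD or IL-4; the labels of these libraries do not say which, nor which methylation state of H3K4 was precipitated, nor the allele or Cre line behind the knockout, nor whether animals were pooled. PA1 binds PTIP, and both belong to the MLL3 and MLL4 complexes, which methylate H3K4. The series asked how histone modifications depend on it. The other 2 samples of the series were not analysed here.

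Signals of the WNT, FGF, BMP, Notch, hedgehog and Slit families are secreted or membrane-bound ligands that bind surface receptors on neighbouring cells and are used again and again in embryonic patterning. Their genes often have CpG-rich promoters, and in differentiated cells many of these promoters are held silent by Polycomb while others carry H3K4 methylation. In the spleen, the ligand Dll1 on stromal cells and the receptor Notch2 on B cells direct the formation of marginal zone B cells.

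Nuclear reads numbered 5259995 in the knockout and 5539475 in the wild-type library. Reads within 1 kb either side of a transcription start site (TSS) were counted, and values are given as reads or as normalized RPM (reads per 1000000 after TMM scaling). Each ratio is that of knockout to wild type after scaling, followed by its 95% interval, which is exact for the counts and covers counting error only. With 1 library per genotype the genotypes could be neither tested nor checked on replicates, and a promoter was counted as lower or higher when it differed by 1.5-fold or more with an interval that left out 1. The targeted gene, PA1 (2900092E17Rik in this annotation), had 114 knockout reads against 261 in wild type (ratio 0.498, 0.396 to 0.624). All 8 B cell markers were marked, with 376 to 570 knockout and 385 to 585 wild-type reads each. Markers of T and NK cells summed to 16 knockout and 33 wild-type reads, with 0 of 8 at 50 or more. Myeloid markers summed to 167 and 230 reads (2 of 8), erythroid markers to 201 and 212 (2 of 5), and endothelial and stromal markers to 512 and 535 (3 of 8). The part of other cells in the results below was not tested.

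Promoter sequence upstream of the TSS is shown for the receptor with the most reads (Ptch1), for the lower promoters with the narrowest intervals (Dll4, Fzd3 and Fgf15), and for the promoters that stayed lower when trends with read level and GC content were removed (Fzd9, Slit3 and Smo, chosen after their values were seen). Each line gives the 250 bases that end just before the TSS, 5′ to 3′ on the gene's strand, from mm9 (NCBIM37), with CG dinucleotides in capitals.
Ptch1: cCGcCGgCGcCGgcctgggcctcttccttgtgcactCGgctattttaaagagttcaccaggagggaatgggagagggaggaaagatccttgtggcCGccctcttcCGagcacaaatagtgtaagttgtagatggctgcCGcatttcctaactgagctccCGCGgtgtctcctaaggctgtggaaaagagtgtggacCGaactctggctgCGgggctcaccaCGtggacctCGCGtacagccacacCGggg
Dll4: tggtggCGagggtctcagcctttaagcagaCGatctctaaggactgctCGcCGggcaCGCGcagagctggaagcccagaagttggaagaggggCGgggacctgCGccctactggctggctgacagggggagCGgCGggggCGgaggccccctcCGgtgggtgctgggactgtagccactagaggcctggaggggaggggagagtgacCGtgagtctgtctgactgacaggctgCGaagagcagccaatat
Fzd3: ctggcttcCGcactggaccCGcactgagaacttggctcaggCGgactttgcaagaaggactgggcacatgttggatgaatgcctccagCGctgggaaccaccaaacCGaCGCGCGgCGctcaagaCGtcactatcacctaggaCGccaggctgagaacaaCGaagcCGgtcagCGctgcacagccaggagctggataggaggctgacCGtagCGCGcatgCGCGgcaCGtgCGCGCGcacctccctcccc
Fgf15: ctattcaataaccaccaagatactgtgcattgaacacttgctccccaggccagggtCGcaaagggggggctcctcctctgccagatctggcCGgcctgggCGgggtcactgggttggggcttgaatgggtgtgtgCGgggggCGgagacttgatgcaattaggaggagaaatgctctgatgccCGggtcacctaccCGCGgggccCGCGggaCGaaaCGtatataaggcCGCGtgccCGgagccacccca
Fzd9: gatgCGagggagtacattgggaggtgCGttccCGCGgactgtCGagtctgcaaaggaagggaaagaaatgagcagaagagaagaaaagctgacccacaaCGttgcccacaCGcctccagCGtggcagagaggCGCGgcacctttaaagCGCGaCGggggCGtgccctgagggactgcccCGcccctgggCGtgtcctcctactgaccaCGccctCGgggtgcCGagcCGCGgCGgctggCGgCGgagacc
Slit3: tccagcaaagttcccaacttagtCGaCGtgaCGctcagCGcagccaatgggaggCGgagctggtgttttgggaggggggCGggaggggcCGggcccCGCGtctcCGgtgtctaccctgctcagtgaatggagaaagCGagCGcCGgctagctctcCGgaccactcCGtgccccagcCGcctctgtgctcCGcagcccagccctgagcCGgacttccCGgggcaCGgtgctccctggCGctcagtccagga
Smo: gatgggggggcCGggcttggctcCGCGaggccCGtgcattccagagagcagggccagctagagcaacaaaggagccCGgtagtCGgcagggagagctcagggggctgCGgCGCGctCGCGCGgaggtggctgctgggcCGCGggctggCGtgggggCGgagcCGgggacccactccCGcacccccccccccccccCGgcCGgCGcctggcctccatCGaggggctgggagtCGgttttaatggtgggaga
The stretches lie at chr13:63665635-63665884 (minus strand, Ptch1), chr2:119151270-119151519 (plus, Dll4), chr14:65881301-65881550 (minus, Fzd3), chr7:152082187-152082436 (plus, Fgf15), chr5:135727101-135727350 (minus, Fzd9), chr11:34934476-34934725 (plus, Slit3) and chr6:29685444-29685693 (plus, Smo). They held 14 CG dinucleotides at Dll4, 15 at Fgf15, 16 at Ptch1, 21 at Slit3, 23 at Fzd3 and at Smo, and 24 at Fzd9. The GC box letters GGGCGG, on either strand, were found in this stretch at 31 of 42 member promoters with 50 or more reads (73.8%), against 63.2% of all 12186 promoters with that many reads; of the promoters printed, only Fzd3 had none. The core letters of RBPJ sites, TGGGAA, were in 6 of the 42 (14.3%, against 18.2%), Fzd3 and Slit3 among them, and those of TCF and LEF sites, CTTTGA, in 0 of 42, against 9.30%. The letters of the motifs may overlap, and a match describes the sequence only.

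Receptor promoters carried H3K4 signal more often than ligand promoters. Of 60 ligand genes, 21 had 50 or more reads in both libraries combined (35%), against 17 of 23 receptor genes (73.9%) and 54.5% of all protein-coding genes; all 4 genes that are neither reached 50. Median combined reads were 27 for ligands, 105 for receptors and 106 for all genes. The difference in these shares was not tested.

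Among receptors, the hedgehog receptor Ptch1, itself a target gene of the pathway it restrains, had the most reads of any member, with 410 knockout and 499 wild-type reads (84.5 and 90.1 normalized RPM). Notch1 followed with 304 and 390 reads, then the WNT receptor Fzd5 with 232 and 261, Notch2 with 200 and 250, and Fzd4 with 149 and 221. Ptch1 and Notch1 stood at percentiles 98.3 and 91.2 of combined reads over all genes. Among ligands, Dll1 led with 215 and 308 reads, followed by Fgf20 with 209 and 267, the growth factor Fgf2 with 163 and 196, Wnt10b with 138 and 220, and Bmp8a with 150 and 199. Part of this list cannot be told apart from neighbouring genes: the windows of 5 members also held a TSS of another gene (Fgf20 with Efha2, Fgf2 with Bbs12 and Cetn4, Fzd4 with Tmem135, Fgfr2 with Ctbp2, and Fgfr1op2 with 4933424B01Rik). At the other annotated TSS of Fgf20 there were 0 knockout and 4 wild-type reads.

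Families differed in how many promoters were marked. All Notch family genes had at least 36 combined reads, and 7 of 9 reached 50; Notch3 and the ligand Jag2 did not. Notch4 did so at its most downstream annotated TSS, while its most upstream one held 0 knockout and 1 wild-type reads. Signal ran on beyond the Notch4 window, and whether it belongs to Notch4 was not tested. Every count of receptors keeps Notch4. Of the 10 frizzled receptor genes 8 reached 50, and of the 19 Wnt genes 7. Of the 22 Fgf ligand genes 8 did, as did 2 of 4 Fgfr genes, although the Fgfr2 window that reached it lies at the TSS shared with Ctbp2, and the highest of its other windows held 4 and 11 reads. Of the 10 BMP ligand genes only Bmp8a did, while the receptors Bmpr1a and Bmpr2 did and Bmpr1b had 2 and 3 reads. Shh had 0 and 1 reads, and Slit3 was the only Slit gene to reach 50, with 6 knockout and 50 wild-type reads.

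The 45 members under 50 reads held 0 to 19 knockout and 0 to 31 wild-type reads, with medians of 2 and 6. Background outside islands and promoters amounted to 1.02 knockout and 0.938 wild-type reads per window of this size, so many of these promoters were close to background: 25 members had fewer than 10 reads in both libraries combined, among them Fgf3, Fgf4, Fgf5, Fgf10, Wnt2, Wnt3a, Wnt4, Wnt5a, Bmp4 and Shh. Many of these weakly marked promoters were rich in CpG. Of the 45, 20 had 100 or more CG dinucleotides in the window, against 788 of all 10181 promoters under 50 reads. Jag2 had the most of any member, 259, with 15 knockout and 24 wild-type reads, and Wnt4 had 197 with 2 and 7 reads. Just below the minimum of 50 lay Wnt3 (16 and 31 reads), Slit1 (14 and 27) and Wnt5b (19 and 21), and just above it Dll3 (23 and 27), Fzd8 (25 and 25) and Fgfr2 (18 and 35).

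**Figure D1:**
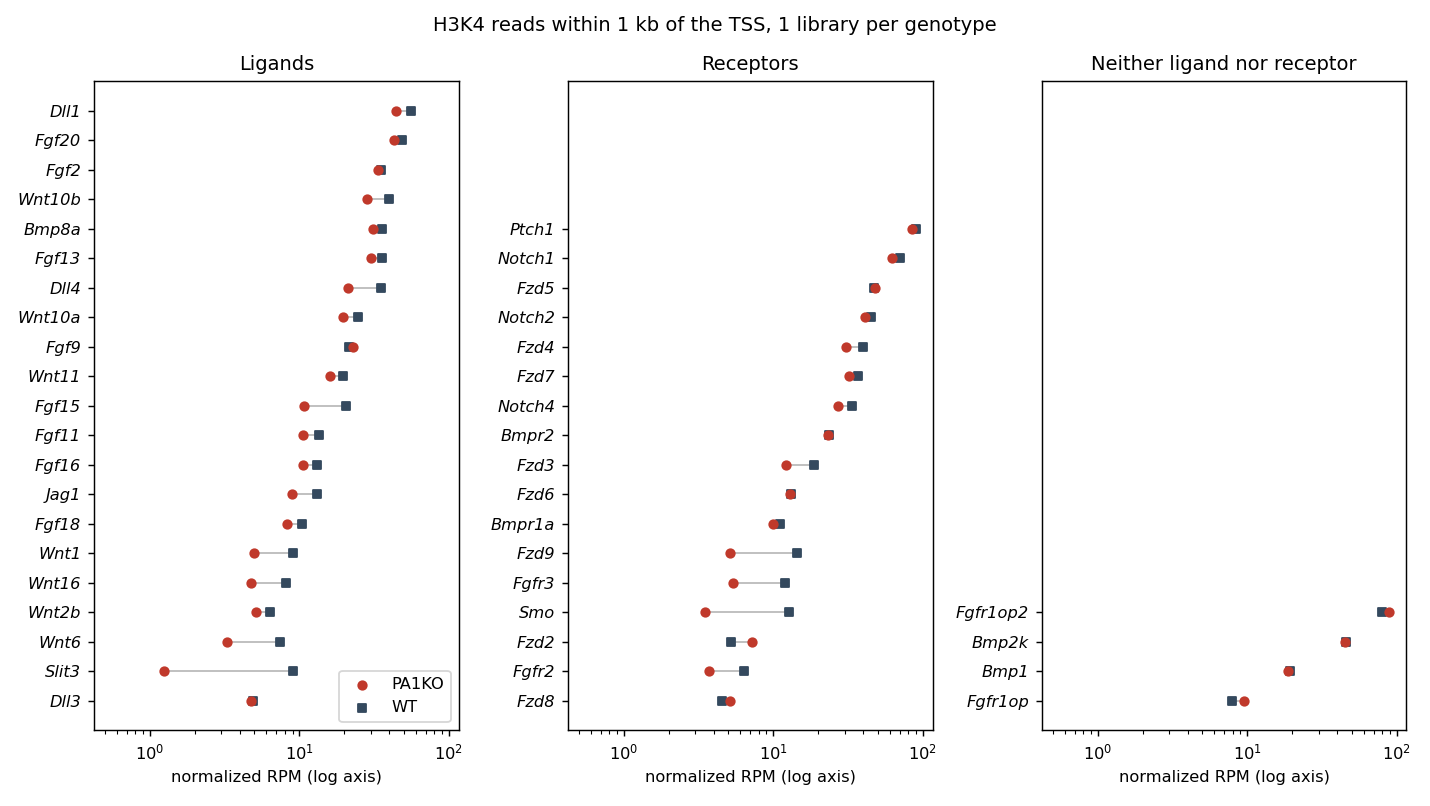
Normalized RPM within 1 kb of the TSS (log axis) for the 42 members with 50 or more reads, with knockout as red circles and wild type as dark squares, 1 library each, joined by a grey line. Ptch1 is highest among receptors at 84.5 in knockout and 90.1 in wild type, and Slit3 is lowest in knockout at 1.24, against 9.03 in wild type.

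Of the 42 member promoters compared, 10 were lower and 0 higher in the knockout library. Across all 12186 promoters compared, 4.90% were lower and 0.665% higher. The 10 were the ligands Slit3, Wnt6, Fgf15, Wnt1, Wnt16 and Dll4 and the receptors Smo, Fzd9, Fgfr3 and Fzd3. Ratios were below 1 at 36 of 42 members, against 49.8% of all promoters, and at 14 of 42 the interval lay wholly below 1, against 11.4%. The median log2 ratio of members was -0.29, which was -0.30 relative to all promoters compared. These counts depended on the scaling: scaled to reads outside islands and promoters, which shifted the median log2 ratio of all promoters by -0.31, 21 members were lower and 0 higher (2041 and 17 of all promoters). With the trend of ratio on read level removed the members had 6 lower and 2 higher (156 and 256 of all), and with the GC trend removed too, 3 lower and 3 higher (105 and 161 of all). The 3 were Fzd9, Slit3 and Smo, while Dll4, Fgf15 and Fgfr3 fell short of 1.5-fold there, at 0.700, 0.687 and 0.676. The interval of Fgfr3 also included 1 there (0.412 to 1.08).

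Ratios followed read level across the genome. The median log2 ratio over all promoters was -0.44 for those with 50 to 100 combined reads, -0.30 for 100 to 200, -0.08 for 200 to 400, 0.05 for 400 to 800 and 0.10 for 800 or more. Members had medians of -0.77 (13 genes), -0.35 (10), -0.23 (11), -0.15 (6) and 0.03 (2) in the same classes. Lower promoters were 6 of 13 members with 50 to 100 reads, against 26.8% of all promoters there, 3 of 10 with 100 to 200 reads (21.1%), and 1 of 11 with 200 to 400 reads (3.53%). Lower promoters were 0 of 6 members with 400 to 800 reads (0.064%) and 0 of 2 with 800 or more (0%). Set against promoters of like reads, the median member stood at -0.17 on the log2 scale, and 28 of 42 were below the median of their class. GC content also differed, with a median of 60.9% in member windows against 54.1% in all windows compared, and with the GC trend removed the median relative to like reads was -0.03.

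**Figure D2:**
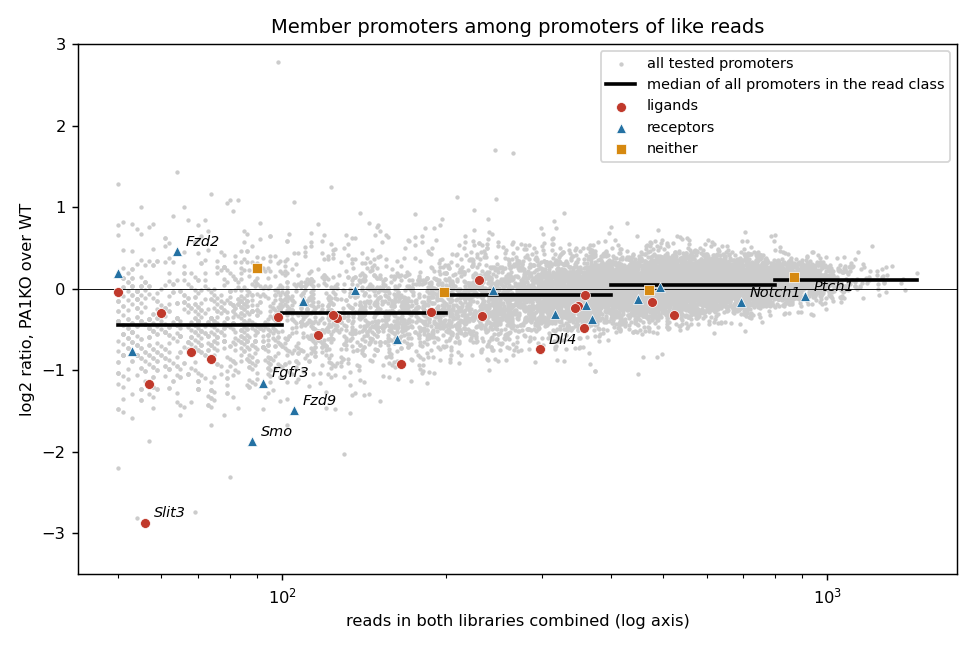
Log2 ratio of knockout to wild type against reads in both libraries combined (log axis), with all 12186 promoters in grey, medians of read classes as black bars, and members as red circles (ligands), blue triangles (receptors) and orange squares (neither). Slit3, Smo and Fzd9 lie farthest below the bars, and Ptch1 and Notch1 lie at -0.20 and -0.22 relative to them.

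Slit3, a guidance ligand for Robo receptors, had the lowest ratio. Its promoter (chromosome 11, TSS 34934726) held 6 knockout reads against 50 wild-type reads, a ratio of 0.137 (0.0480 to 0.320). Both sides of the TSS shared in this, with 3 knockout and 21 wild-type reads upstream and 3 and 29 downstream. Here and below, the sides split the reads that made a promoter lower, so they are not separate evidence. At Fgfr3, Fzd3, Wnt1, Wnt16 and Wnt6, at least 1 side had an interval that included 1. At another annotated Slit3 TSS, at position 34991285, 16 and 27 reads were found. Its log2 ratio was -2.87, and -2.43 relative to the median of promoters with 50 to 100 reads. Slit1 and Slit2, at 14 and 27 and at 10 and 23 reads, were under the minimum. Slit3 met the minimum with its 50 wild-type reads alone, the library where it is higher. The same holds for Smo (17 and 71 reads), Fzd9 (25 and 80), Fgfr3 (26 and 66) and Wnt1 (24 and 50).

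Smo, the membrane protein that passes on the hedgehog signal once Ptch1 is bound by ligand, had 17 knockout and 71 wild-type reads at its only annotated TSS (chromosome 6, 29685694), a ratio of 0.273 (0.151 to 0.469). The upstream side held 5 and 18 reads and the downstream side 12 and 53. Ptch1 by contrast had a ratio of 0.938 (0.821 to 1.07) at the TSS used (chromosome 13, 63665634). At the most upstream Ptch1 TSS, 63674474, 85 knockout and 152 wild-type reads gave 0.643 (0.487 to 0.844), so the call at Ptch1 depends on the TSS. The 10 Mb block with Smo, which also holds Wnt16, contained 7 positions where only the wild-type library mismatched the reference and 0 where only the knockout library did. Of the other lower promoters, the blocks of Fzd3, Wnt1 and Fgfr3 held 4, 1 and 1 such wild-type positions. Those of Dll4, Fgf15, Fzd9, Wnt6 and Slit3 held 0. The blocks of Fgf9 and Bmp4, described below, held 10 and 4. The part of these positions in the ratios was not tested.

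Among the frizzled receptors, which bind Wnt ligands, Fzd9 and Fzd3 were lower. Fzd9 (chromosome 5, TSS 135727100) had 25 knockout reads against 80 in wild type (ratio 0.357, 0.218 to 0.565), and both sides of its TSS were alike at 0.320 (7 and 25 reads) and 0.374 (18 and 55 reads). Fzd9 has been linked to early B cell development in mice. Fzd3 (chromosome 14, TSS 65881300) had 59 and 103 reads (ratio 0.654, 0.466 to 0.909), but with the trend on read level removed this was 0.801. Fzd4 had a ratio of 0.769 (0.621 to 0.951), short of 1.5-fold, and its window is shared. The other 5 frizzled genes compared had intervals that included 1, with ratios of 0.873 at Fzd7, 0.985 at Fzd6, 1.01 at Fzd5, 1.14 at Fzd8 and 1.38 (0.818 to 2.34) at Fzd2. Fzd2 was higher with the trend on read level removed, and with both trends removed so were Fzd2 and Fzd8 (1.82, 1.003 to 3.30, at Fzd8).

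Before any trend was removed, the 7 Wnt ligand genes compared all had ratios below 1, from 0.445 to 0.817, and 3 were lower. Of all promoters compared, 49.8% had ratios below 1 and 4.90% were lower. The 3 lower Wnt genes had 50 to 100 combined reads. In that class 738 of all 912 promoters had ratios below 1 and 26.8% were lower. Wnt6 (chromosome 1, TSS 74818466) had 16 knockout reads against 41 in wild type (ratio 0.445, 0.233 to 0.811). Wnt1 (chromosome 15, TSS 98622122) had 24 and 50 reads and 0.548 (0.322 to 0.908), and Wnt16 (chromosome 6, TSS 22238288) had 23 and 45 reads and 0.583 (0.337 to 0.985). All but 1 of the Wnt16 reads lay downstream of its TSS. Wnt10b, at 138 and 220 reads, had an interval below 1 without reaching 1.5-fold, at 0.716 (0.574 to 0.890). Wnt genes often lie side by side, and Wnt10b starts 14.4 kb from Wnt1 as Wnt10a does 19.6 kb from Wnt6. Wnt10a had 95 and 137 reads and 0.791 (0.603 to 1.04), Wnt11 78 and 109 reads and 0.817 (0.603 to 1.10), and Wnt2b 25 and 35 reads and 0.815 (0.468 to 1.40). Wnt1, Wnt6 and Wnt16 were no longer lower with the trend on read level removed, at 0.751, 0.633 and 0.809.

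In the Notch family all 7 promoters compared had ratios below 1, and 1 was lower. Of all promoters compared, 49.8% had ratios below 1 and 4.90% were lower. The ratio of Dll3 was 1.41 (0.770 to 2.55) with the trend on read level removed. The ligand Dll4 (chromosome 2, TSS 119151520) had 102 knockout reads against 195 in wild type (ratio 0.597, 0.465 to 0.762), and was the lower member with the most reads. Its upstream side had a ratio of 0.604 (0.392 to 0.918) and its downstream side 0.593 (0.434 to 0.805). The other ligands had ratios of 0.797 (0.666 to 0.951) at Dll1, 0.672 (0.450 to 0.993) at Jag1, with 43 and 73 reads, and 0.972 (0.533 to 1.76) at Dll3. The receptors had intervals that included 1, at 0.890 (0.763 to 1.04) for Notch1, 0.913 (0.754 to 1.10) for Notch2 and 0.804 (0.638 to 1.01) for Notch4, an endothelial Notch receptor, with 131 and 186 reads. The Notch4 window lies at its most downstream annotated TSS, 34723986, and the most upstream, 34701213, held 0 and 1 reads. Signal continued downstream of that window, with 74 and 53 reads in the 250 bp bin centred at 1125 bp. The bin centred at 4875 bp still held 30 and 34 reads. Whether the signal in the Notch4 window belongs to Notch4 was not tested. Summed over all 5 ligands, 398 knockout and 627 wild-type reads gave 0.724 (0.637 to 0.823), and over all 4 receptors 649 and 848 reads gave 0.873 (0.787 to 0.969).

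In the FGF family, Fgf15 and Fgfr3 were lower. Fgf15, the mouse counterpart of human FGF19 and an intestinal hormone that restrains bile acid synthesis, had 52 knockout and 113 wild-type reads at its TSS (chromosome 7, 152082437), a ratio of 0.525 (0.371 to 0.736). Its neighbours Fgf3 and Fgf4 had 0 and 2 and 2 and 1 reads. Fgf15 lies on chromosome 7, as PA1 does; its own 10 Mb block had 0 positions where only the knockout library mismatched the reference, while 49 such positions lay on the chromosome, and the part of this in the ratio was not tested. Fgfr3 (chromosome 5, TSS 34065047) had 26 and 66 reads (ratio 0.450, 0.274 to 0.718). The other 7 Fgf ligand genes compared had intervals that included 1, from 0.776 (0.533 to 1.12) at Fgf11 to 1.07 (0.821 to 1.40) at Fgf9, and so did Fgfr2 at 0.587 (0.313 to 1.06). The call at Fgf9 depends on the TSS: with a 500 bp window the TSS with most reads was the one at 58693952, and Fgf9 was lower there, while within 1 kb that TSS had 69 knockout and 127 wild-type reads.

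No BMP family promoter passed the threshold. Bmpr2, the type II receptor, had 113 knockout reads against 130 in wild type (ratio 0.992, 0.764 to 1.29), and Bmpr1a, a type I receptor, 48 and 61 reads and 0.898 (0.602 to 1.33). Bmp8a stood at 0.860 (0.691 to 1.07). The genes that are neither ligand nor receptor were Bmp2k at 0.992 (219 and 252 reads), Bmp1 at 0.971 (91 and 107), Fgfr1op at 1.19 (46 and 44) and Fgfr1op2 at 1.11 (428 and 442), and each interval included 1.

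**Figure D3:**
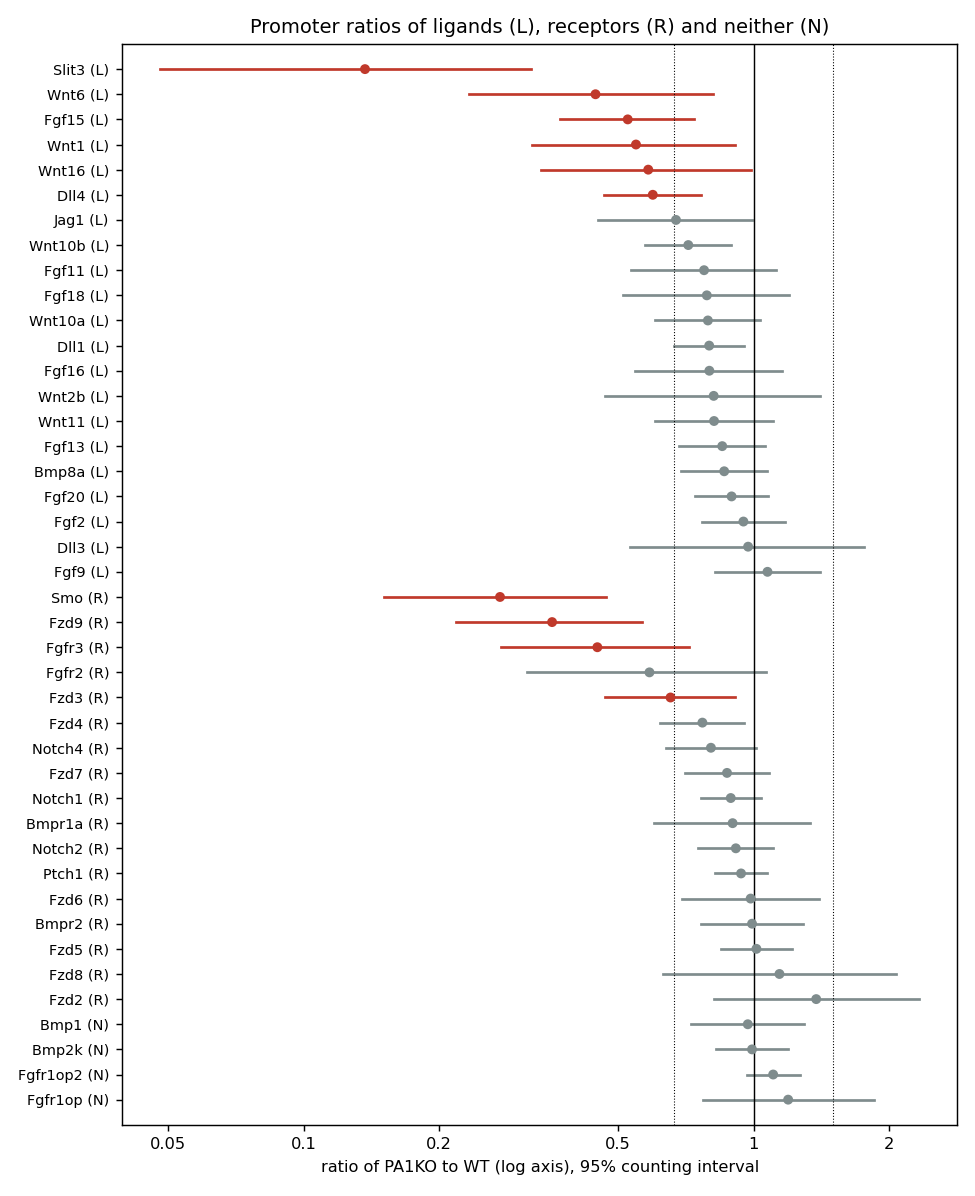
Ratio of knockout to wild type (log axis) with its 95% counting interval for each of the 42 members, ligands (L) above receptors (R) above genes that are neither (N), with a solid line at 1, dotted lines at 1.5-fold and lower promoters in red. Slit3 and Smo have the lowest ratios of their roles, at 0.137 and 0.273, and no interval lies wholly above 1.

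Ligands and receptors were next set against each other. Lower promoters were 6 of 21 ligands and 4 of 17 receptors, against 4.90% of all promoters. Scaled to background they were 14 of 21 and 7 of 17 (16.7% of all), and with both trends removed 1 of 21 and 2 of 17 (0.862% of all). Median log2 ratios were -0.34 for ligands and -0.17 for receptors. Set against promoters of like reads the medians were -0.21 for ligands and -0.20 for receptors, a difference of -0.02. Over all reads of every member, ligands held 1947 knockout reads against 2910 in wild type (ratio 0.764, 0.721 to 0.809), and receptors 2055 and 2751, a ratio of 0.853 (0.805 to 0.903). The log2 ratio of summed reads was thus lower in ligands, with a difference from receptors of -0.16 (-0.28 to -0.04 for counting error alone). The difference of the medians turned to 0.02 with the trend on read level removed, to 0.01 with both trends removed and to 0.03 at the most upstream TSS. The difference of the sums ranged from -0.23 to -0.05 in the 9 alternatives that could move it. It shrank to -0.05 with the trend on read level removed and to -0.07 with both removed, where a counting interval of the same width would include 0. The other 5 alternatives, which change the scaling or the minimum, leave it as it is by construction.

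Promoters under 50 reads, which were not compared one by one, were lower in sum. The 45 members held 229 knockout reads against 391 in wild type (ratio 0.668, 0.565 to 0.789), against 0.888 (0.874 to 0.903) for all 10181 promoters under 50 reads. Among those with 20 to 50 reads the ratio was 0.626 (0.508 to 0.768) in 12 members and 0.785 (0.767 to 0.803) in all 944 promoters, and under 20 reads it was 0.761 (0.568 to 1.01) in 33 members and 1.02 (0.996 to 1.04) in all 9237. With the minimum at 20 reads, Fgf8, an organiser signal of the embryo, and Bmp6, a regulator of iron balance in the liver, joined the lower members. That made 12 of 54 members lower, against 5.45% of all 13130 promoters. The 944 promoters so added raised the number lower over all promoters from 597 to 715. Fgf8 had 5 knockout reads against 21 in wild type (ratio 0.272, 0.0801 to 0.740), and Bmp6 7 and 21 reads and 0.380 (0.137 to 0.929).

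Reads farther from the TSS differed less. Over the 10 lower members, which were chosen by those reads, 350 knockout and 814 wild-type reads lay within 1 kb, while from 1 to 2 kb away 134 and 193 reads gave a ratio of 0.792 (0.631 to 0.993) and from 2 to 5 kb 62 and 80 reads gave 0.884 (0.624 to 1.25). In the other 32 members compared the ratios were 0.906 (0.870 to 0.944) within 1 kb, 0.981 (0.921 to 1.04) from 1 to 2 kb and 0.963 (0.905 to 1.02) from 2 to 5 kb.

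**Figure D4:**
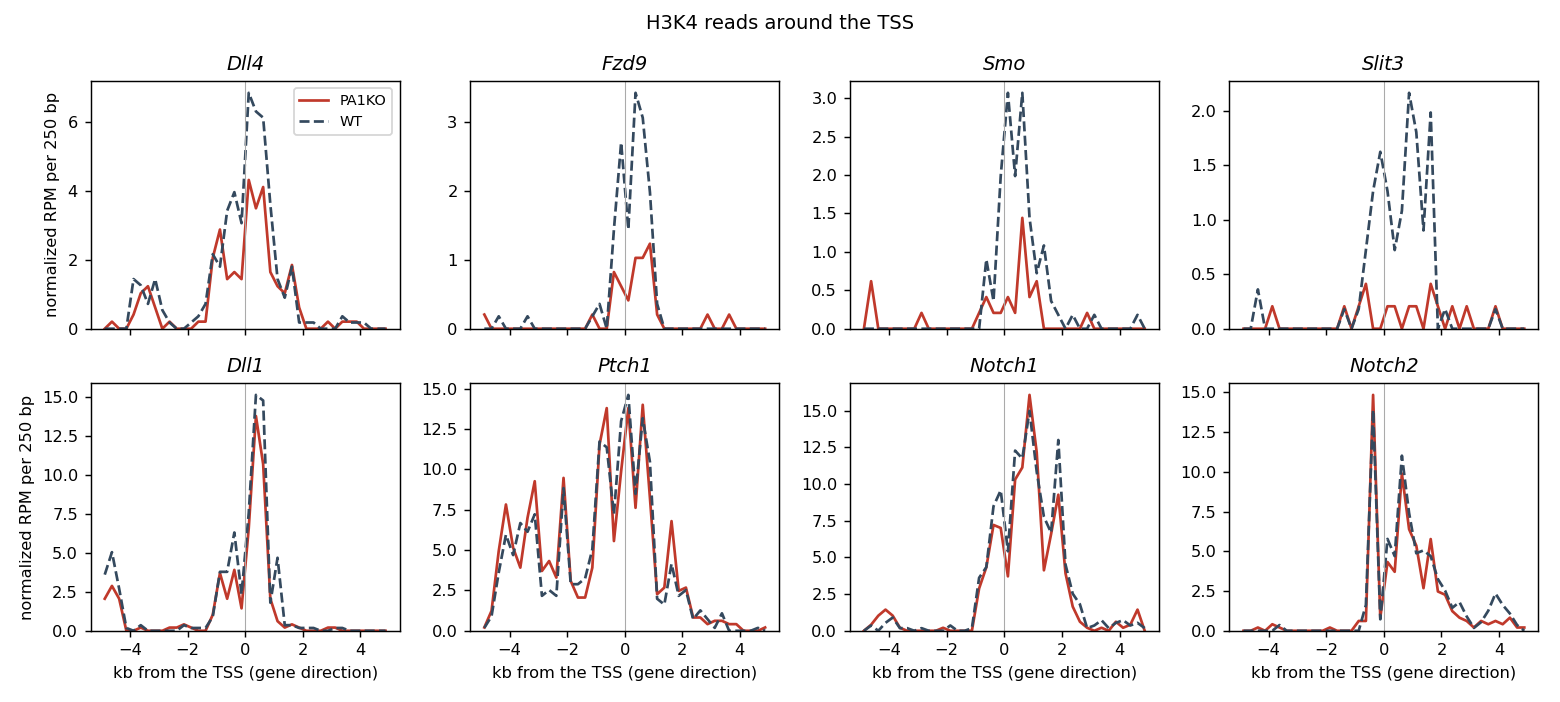
Normalized RPM per 250 bp bin from 5 kb upstream to 5 kb downstream of the TSS, with knockout as solid red lines and wild type as dashed dark lines, and a vertical axis of its own for each gene. The 4 lower promoters of the top row have knockout lines under the wild-type lines around the TSS, as their ratios of 0.137 to 0.597 show, while at Ptch1, Notch1 and Notch2 the lines run close together. Dll1, also in the bottom row, lies between, with a ratio of 0.797 (0.666 to 0.951).

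Islands of signal over 1 kb from the TSS used and from any TSS of another gene were also counted, in the members' genes and up to 10 kb upstream. In all, 50 such islands lay at 24 members, and of the 29 with 50 or more reads 3 were lower and 1 higher, against 5.85% and 7.02% of the 7075 islands of the genome that lay over 1 kb from any TSS. The lower ones were at Bmp4 (23 knockout and 61 wild-type reads, ratio 0.430, 0.254 to 0.705), whose promoter held 2 and 5 reads, at Fgf9 (75 and 146 reads, 0.586, 0.438 to 0.780) and at Ptch1 (91 and 157 reads, 0.661, 0.505 to 0.862), where the island holds the most upstream TSS of the gene. The Fgf9 island likewise holds another annotated TSS of that gene. The genome set leaves out islands near any TSS, so the Ptch1 and Fgf9 islands could not be part of it. The island of Bmp4, a ligand with many roles in patterning, lay 3.04 kb downstream of its TSS and that of Fgf9 2.78 kb downstream. The higher one lay inside the Fgfr2 span, which this annotation draws out to the Ctbp2 promoter. Fgfr2 alone held 16 of the 50 islands. An island between Wnt6 and Wnt10a was counted under both genes.

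Other genes of these pathways were compared in the same way. Of 102 listed modulators, transducers and target genes, 101 were matched to the annotation and 78 had 50 or more reads. Of these 4 were lower, against 4.90% of all promoters, and 0 higher, against 0.665%. Scaled to total reads 13 were lower, against 7.78% of all promoters, and scaled to background 29, against 16.7%. The 4 were Rnf43, a ubiquitin ligase that removes frizzled receptors, with 109 knockout reads against 190 in wild type (ratio 0.655, 0.513 to 0.833); Fgfrl1, an FGF receptor without a kinase domain, with 45 and 86 reads and 0.597 (0.407 to 0.866); Id1, a BMP target gene, with 54 and 126 reads and 0.489 (0.349 to 0.678); and Rfng, a glycosyltransferase that modifies Notch, with 128 and 223 reads and 0.655 (0.523 to 0.818). The median log2 ratio of the 78 was -0.13, and -0.10 relative to promoters of like reads.

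By pathway, 1 of 20 WNT, 1 of 13 FGF, 1 of 14 BMP, 1 of 22 Notch, 0 of 6 hedgehog and 0 of 3 Slit genes were lower. In the hedgehog and Slit pathways, where none was lower, the lowest were Gli1, a hedgehog transcription factor, at 0.623 (0.362 to 1.05), and Srgap2, which acts downstream of Robo receptors, at 0.762 (0.645 to 0.899). The highest of each pathway were the beta-catenin scaffold Axin1 at 1.13, the FGF receptor adaptor Frs2 at 1.21, the common mediator Smad4 at 1.07, the gamma-secretase subunit Ncstn at 1.19, the Gli inhibitor Sufu at 1.18 and Srgap1 at 1.496 (1.09 to 2.05), with 97 and 74 reads.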

How the data were processed

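Per the submitters' processing notes, the build was mm9 and SICER was used; the aligning tool was not given in the sources used here. The deposited files hold 1 aligned 25-base read per line, so that the authors' values are positions (unit: other), not counts, and 0 reads repeat a position and strand. The 5′ ends were moved 75 bp towards the fragment centre, and reads within 1 kb of the annotated TSS (GENCODE vM1) with most combined reads were counted. Genes with at least 50 combined reads were compared after TMM scaling (trims of 30% and 5%), which set the scale of knockout to wild-type reads at 0.876. Intervals are exact conditional binomial (Clopper-Pearson) and cover counting error only, with 1 library per genotype; the reads carry no molecular identifiers. Windows shared with another gene were kept. The members and lists were chosen with earlier results of these data known. Genes named are members whose interval excludes 1, the 5 most-read ligands and receptors, the 3 members on either side of 50 reads, and the lower, highest and lowest pathway genes; other members are named to complete their families. The promoter sequence of the most-read ligand is not reported here. The steps were checked on simulated data with the same scale for all promoters. The simulation had no trend on read level or GC content, so it does not cover calls made where such trends exist. In all 14 alternatives were run. Python 3.11.15, numpy 2.4.6, scipy 1.17.1, pandas 2.3.3, statsmodels 0.14.6 and matplotlib 3.10.9 were used.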

Additional observations from a re-analysis of the deposited data

How the results depend on the processing

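The median log2 ratio of members stayed below that of all promoters in the 11 alternatives that could move the difference; the 3 scalings shift both alike. From -0.30 it moved to -0.36 with no minimum, -0.17 with the read level trend removed, -0.11 with the GC trend removed, -0.0524 with both removed and -0.23 without chromosome 7 members. Relative to like reads it moved from -0.17 to -0.22 with a 2 kb window, -0.23 with no minimum, -0.0301 after GC correction and -0.0568 after both corrections. Of members, 21 were lower when scaled to background, 6 without the read level trend and 3 without either trend, against 10. With a 500 bp window 4 of 29 compared were lower (3.71% of all promoters), 3 of them among the 10 and the other Fgf9, at another TSS; the other alternatives gave 9 to 13. None was higher except 2 with the read level trend removed (Fgfr1op and Fzd2) and 3 with both removed (also Fzd8). Fzd9 was lower in 12 of 12 alternatives, and Smo and Slit3 in the 11 of 11 that compared them. Among these, the minimum of 20 reads and no minimum could not change the calls by construction. The most upstream TSS of Fzd9, Smo and Slit3 is the one already used. That alternative therefore recounted the same reads and moved only the scale, with ratios of 0.359, 0.275 and 0.138. The difference of ligand and receptor medians, -0.17, was -0.29 with a minimum of 20 reads and turned to 0.0327 at the most upstream TSS, 0.0158 with the read level trend removed and 0.0102 with both removed; the cause was not tested. Of pathway genes, 4 were lower, against 13 scaled to total reads (7.78% of all promoters), 29 scaled to background (16.7%), 2 with a 500 bp window (3.71%), 1 with the read level trend removed (1.28%), 2 after GC correction (3.75%) and 1 after both corrections (0.862%). Of pathway genes, 1 was higher with no fragment shift (85 of all 12173 promoters), with a minimum of 20 reads (97 of 13130) and with no minimum (135 of 20174). The same number was higher with the read level trend (256 of all 12186 promoters), the GC trend (38) or both trends (161) removed. No paired analysis was possible because each genotype had 1 library. At 50 reads the interval of a ratio of 1.14 ran from 0.629 to 2.07, so that smaller differences were not detectable at this depth.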
